A study of Glycine max with 18 samples.

Results

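The comparison of hilum with outer integument rests on 4 of the 18 arrays of this series: 2 arrays of hilum and 2 arrays of outer integument, chosen by their labels alone. Both tissues belong to the maternal seed coat of soybean (Glycine max), cultivar Asgrow A3237, and were cut by laser from paraffin sections 8 µm thick. The seeds were 2.5 to 3.0 mm long and held embryos at the cotyledon stage. The labels name no mutation, transgene or treatment in any group. Plants were kept at 22 °C under a cycle of 16 h light and 8 h dark. The hilum captures and the outer integument captures were handled alike per the labels: RNA was extracted with the PicoPure kit, and 2 ng was amplified for each array. The other 14 arrays held epidermis, inner integument, endothelium, endosperm, suspensor, embryo proper and whole seed, 2 of each, and served to estimate the spread between arrays.

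The hilum is the place where the seed is joined to the funiculus, the stalk through which the mother plant feeds it, and it remains as the scar on the ripe seed. The outer integument forms the outer tissue of the seed coat away from that junction. Seed coats of legumes are known for making flavonoids, a family of phenolic compounds built from phenylalanine. The phenylpropanoid enzymes make coumaroyl-CoA, chalcone synthase and chalcone isomerase turn it into flavanones, and later branches lead to anthocyanin pigments, to proanthocyanidins (condensed tannins) or to isoflavones. In many yellow-seeded soybean cultivars the pigment of the ripe seed is limited to the hilum.

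Signals were scaled so that the trimmed mean of each array was 500. Probe sets for organisms other than soybean give the background, and their 95th percentile was 185 and 216 for hilum, against 198 and 152.5 for outer integument. Of the soybean probe sets, 65.4% and 67.5% reached a signal of 100 in hilum, against 66.5% and 62.5% in outer integument. The Pearson correlation of the log2 signals within a pair, taken across probe sets, was 0.942 for hilum and 0.944 for outer integument, and that between the means of hilum and outer integument was 0.866. These values are across probe sets, which do not count as replicates, and serve as a description. The signal of the added control transcript bioC was 5509.5 and 6483 with hilum RNA, against 13115 and 6239.9 with outer integument RNA. No gene was taken as a textbook marker of hilum or of outer integument. Storage protein and inhibitor genes of the embryo (A1, GY1, GY2, KTI3) summed to 269.7 and 508 in hilum and 468 and 248 in outer integument. In embryo proper they summed to 7117 and 7582. Of these 4 genes, 0 were above background on both arrays of hilum or of outer integument. The inhibitor gene KTI-3, outside this set, was 7.84-fold higher in outer integument than in hilum. The maturation genes that mark the suspensor here (PM9, PM25, PM32, MP2) summed to 231 and 418 in hilum and 369 and 259.8 in outer integument, against 188728 and 158115 in suspensor.

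Between the tissues 5333 of 31961 tested soybean probe sets (16.7%) passed an adjusted p of 0.05. Of these, 2741 (8.58%) were higher in hilum and 2592 (8.11%) were lower. Among the 1043 tested genes that carry a name, 122 (11.7%) were higher in hilum and 179 (17.2%) were lower, so 28.9% of the named genes passed. The changes were often large: 216 probe sets were over 16-fold higher in hilum and 228 over 16-fold lower. Both hilum arrays stood above background and both outer integument arrays did not for 953 probe sets, and the converse held for 1154. Without regard to the test, both hilum arrays lay above both outer integument arrays in 28.7% of tested probe sets and 27.7% of named genes, and below them in 23.6% and 31.9%. The median log2 fold was 0.04 over all tested probe sets and -0.06 over the named genes. Log2 folds are given with their standard errors (SE), and adjusted p-values come from limma's moderated test with Benjamini-Hochberg adjustment. A bulk signal cannot tell apart fewer cells of a type and less RNA per cell. The labels do not say whether the arrays of a tissue came from separate plants or seeds, so the p-values measure only the spread between these arrays, which may be technical.

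Of the 15 largest rises, 8 are named for the flavonoid, isoflavonoid or phenylpropanoid routes and 3 encode MYB proteins. The 15 largest falls included a pair of saponin glycosyltransferases, a lipoxygenase, a SWEET sugar transporter and a peptide hormone precursor. The signals of all 30 are plotted by array. In 8 of the 15 rises and 6 of the 15 falls the lower tissue was under background.

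**Figure D1:**
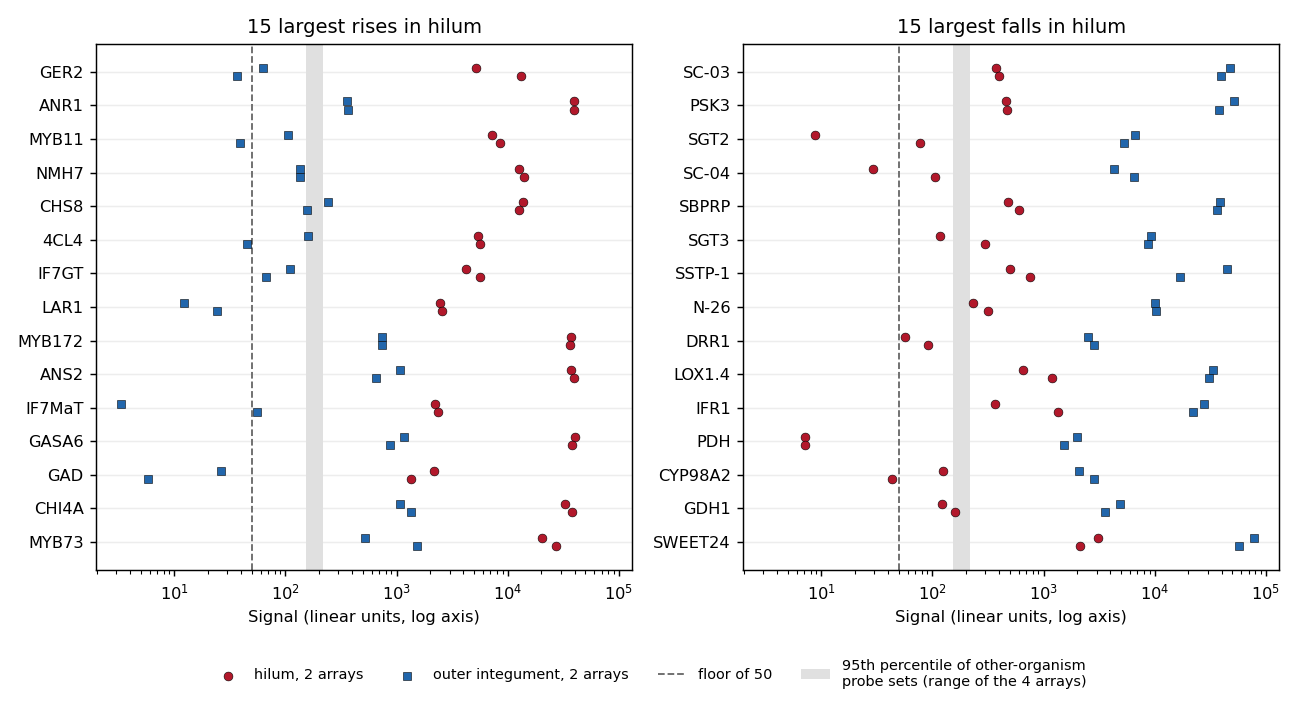
Signal of the 15 genes with the largest rises (left) and the 15 with the largest falls (right) in hilum relative to outer integument, on a log axis; each point is 1 array, circles for hilum and squares for outer integument, the dashed line is the floor of 50 and the grey band the range of the background percentile, from 152.5 to 216. The arrays of hilum and of outer integument do not overlap in any of the 30 genes, which the rule for choosing them required.

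Enzymes that make anthocyanidins and proanthocyanidins were higher in hilum. Of 6 tested genes, 5 were higher in hilum and 0 lower, against 11.7% higher and 17.2% lower over all named genes. The remaining gene did not pass, and the median log2 fold was 5.02. ANR1 (anthocyanidin reductase, which makes epicatechin for proanthocyanidins) had signals of 39338 and 39278 in hilum, against 356 and 363 in outer integument. The difference was 109-fold (log2 fold 6.77 ± 0.44, adjusted p = 5.4e-09), and the arrays of each tissue lay close together without overlap. ANS2 (anthocyanidin synthase) had 36823 and 39798 in hilum, against 1086 and 655 in outer integument (45.4-fold, log2 fold 5.50 ± 0.38, adjusted p = 9.3e-09). DFR1 (dihydroflavonol reductase, the step before anthocyanidin synthase's substrate) had 17506 and 18373 in hilum, against 569.9 and 1049 in outer integument (23.2-fold, log2 fold 4.54 ± 0.44, adjusted p = 5.4e-07). These 3 genes were strong on both hilum arrays and low but measurable in outer integument. LAR1 (leucoanthocyanidin reductase, which makes catechin) had 2482 and 2572 in hilum, against 12.3 and 24.4 in outer integument, where both arrays lay under the floor of 50. Its fold is therefore at least 50.5-fold (log2 fold 5.66 ± 0.60, adjusted p = 1.6e-06). The weaker dihydroflavonol reductase gene DFR2 had 1059.6 and 1726 in hilum, against 63.3 and 91.5 in outer integument (17.8-fold, adjusted p = 4.3e-05). UGT78K1, which adds glucose to anthocyanidins, had 88 and 137 in hilum, against 81.3 and 99.3 in outer integument (log2 fold 0.29 ± 0.79, adjusted p = 0.88) and did not pass. Its signal was 10058 and 12806.5 in suspensor.

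ANS2, DFR1 and ANR1 also had high signals in epidermis. ANS2 had 27263 and 36876 in epidermis, 379 and 503 in inner integument and 529 and 647 in endothelium. The difference between hilum and epidermis in ANS2 did not pass (log2 fold 0.27 ± 0.38, adjusted p = 0.77, hilum over epidermis). DFR1 likewise had 25012 and 33252 in epidermis (log2 fold -0.69 ± 0.44, adjusted p = 0.43, hilum over epidermis). ANR1 had 14224 and 17797 in epidermis, below both hilum arrays, and missed the threshold (2.47-fold, adjusted p = 0.084, hilum over epidermis). LAR1 stood apart from these, with 310.2 and 87.5 in epidermis and a difference that passed (log2 fold 3.94 ± 0.60, adjusted p = 2.8e-04). It was at or under 54.3 on all arrays of inner integument, endothelium, endosperm, suspensor and embryo proper. In Arabidopsis seeds anthocyanidin reductase marks the endothelium, but the endothelium arrays here summed to 1389 and 1627 over ANS2, DFR1, ANR1 and LAR1, against 96149 and 100020 in hilum. These contrasts share the hilum arrays with the main one.

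Upstream of that branch, 5 of 9 early flavonoid genes were higher in hilum and 1 was lower (median log2 fold 2.25). The shares over all named genes were 11.7% higher and 17.2% lower. CHS8, a chalcone synthase, the entry enzyme of the flavonoid route, had 13672 and 12681 in hilum, against 241 and 155 in outer integument (68.1-fold, log2 fold 6.09 ± 0.43, adjusted p = 1.4e-08). Of its 4 other probe sets, 3 were also higher in hilum, and 1 was lower there at signals near background (log2 fold -1.44, adjusted p = 0.0054). CHI4A, of the chalcone isomerase family, had 33008 and 37712 in hilum, against 1067 and 1341 in outer integument (29.5-fold, log2 fold 4.88 ± 0.32, adjusted p = 5.8e-09). CHI2-A, a chalcone isomerase, had 9168 and 8713 in hilum, against 535 and 254 in outer integument (24.2-fold, log2 fold 4.60 ± 0.36, adjusted p = 4.4e-08). The signals of F3H (flavanone 3-hydroxylase) were 52354 and 65160.1 in hilum, against 3455 and 3678 in outer integument (16.4-fold, log2 fold 4.03 ± 0.30, adjusted p = 2.9e-08). Another F3H probe set had 20201 and 16421 in hilum, against 224 and 115 in outer integument, and was 114-fold higher (adjusted p = 6.8e-09). CHS8, CHI4A, CHI2-A and F3H were high on both hilum arrays, with no overlap. CHS1 had 711 and 1189 in hilum, against 182.5 and 206 in outer integument (4.75-fold, adjusted p = 0.0065), and its call was lost without hilum array 2 (adjusted p = 0.086). Of 4 other CHS1 probe sets, 2 were higher by 48.0-fold (adjusted p = 2.1e-08) and 45.9-fold (3.9e-07), and 2 did not pass. The lower gene was CHI3A1, named for the chalcone isomerase family, with signals near background. It had 106 and 63.3 in hilum, against 276 and 199 in outer integument (2.87-fold lower, adjusted p = 0.047). That call was lost without any 1 of the 4 arrays, with adjusted p from 0.0521 without hilum array 1 to 0.28 without hilum array 2. F3H had 45357 and 71198 in epidermis (log2 fold 0.04 ± 0.30, adjusted p = 0.99, hilum over epidermis). CHI2-A had 7526.5 and 11909 there (log2 fold -0.08 ± 0.36, adjusted p = 0.95). CHS8 was lower in epidermis, at 3034 and 5949.8 (log2 fold 1.63 ± 0.43, adjusted p = 0.023, hilum over epidermis).

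The phenylpropanoid enzymes that feed the route showed 5 of 9 genes higher in hilum and 1 lower, against 11.7% and 17.2% over all named genes. The median log2 fold of these 9 genes was 0.99. C4H (cinnamate 4-hydroxylase) had 8683 and 8131 in hilum, against 782 and 616 in outer integument (12.1-fold, log2 fold 3.60 ± 0.24, adjusted p = 6.6e-09). The 4CL genes encode 4-coumarate CoA ligase, which makes coumaroyl-CoA, and 3 of the 5 tested rose. 4CL4 had 5373 and 5629.7 in hilum, against 158 and 44.9 in outer integument, a 61.8-fold difference (log2 fold 5.95 ± 0.43, adjusted p = 2.0e-08) that was 110-fold without outer integument array 1 and 34.7-fold without array 2. 4CL3 had 742 and 1687 in hilum, against 181.5 and 117 in outer integument (7.67-fold, adjusted p = 1.1e-04) and was 11.6-fold higher without hilum array 1 and 5.09-fold higher without hilum array 2. 4CL1 had 348 and 448 in hilum, against 9.7 and 85.1 in outer integument (6.06-fold, adjusted p = 2.3e-04). Inner integument had 2455 and 3881 of 4CL1, and endothelium had 3349 and 4034. PAL2.1 (phenylalanine ammonia-lyase) was 1.98-fold higher (adjusted p = 0.019), and its call was lost without any 1 array (adjusted p from 0.055 to 0.12). Its other probe set had 5291 and 4815 in hilum, against 11.2 and 257 in outer integument, and was 44.6-fold higher (adjusted p = 4.0e-06), so the size of the PAL2.1 difference depends on the probe set. The 1 gene that fell was CYP98A2, the hydroxylase that directs coumaroyl esters toward lignin and chlorogenic acid, with 126 and 43.1 in hilum, against 2094 and 2839 in outer integument. It was 30.8-fold lower in hilum (log2 fold -4.94 ± 0.65, adjusted p = 2.0e-05), 48.8-fold without hilum array 1 and 19.4-fold without hilum array 2. With the 4 arrays fitted alone, 3 of the 9 phenylpropanoid genes passed.

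Most isoflavone genes did not pass. Of 18 tested, 3 were higher in hilum, 1 was lower and 14 did not pass (median log2 fold -0.03). The shares over all named genes were 11.7% higher and 17.2% lower. IF7GT, which adds glucose to isoflavones, had 4232 and 5593 in hilum, against 110.3 and 66.4 in outer integument (56.9-fold, log2 fold 5.83 ± 0.45, adjusted p = 3.9e-08). IF7MaT, which adds a malonyl group to the glucosides, had 2204 and 2346 in hilum, against 3.3 and 55.7 in outer integument (43.1-fold, log2 fold 5.43 ± 0.47, adjusted p = 1.5e-07). HIDH (2-hydroxyisoflavanone dehydratase) had 16535 and 19318 in hilum, against 1775 and 1523 in outer integument (10.9-fold, log2 fold 3.44 ± 0.34, adjusted p = 8.1e-07). Unlike ANS2 and F3H, neither modifying enzyme was above background in epidermis, where IF7GT had 5.1 and 9.8 and IF7MaT 2.2 and 14.6. IF7GT was highest in embryo proper, at 8062 and 6961, and IF7MaT was high in suspensor, at 12949 and 10048, and in embryo proper, at 9014 and 10602. The isoflavone synthase genes IFS1 and IFS2, which start this branch, had signals near background in both tissues: IFS1 had 24.5 and 17.9 in hilum, against 134 and 17.2 in outer integument, and IFS2 had 9.6 and 12.6 in hilum, against 140.2 and 11.5 in outer integument. In suspensor IFS1 reached 1326 and 2644.5, and IFS2 2139 and 3528.5. IFR1, named for isoflavone reductase, was the one that fell, with 367 and 1347 in hilum, against 27992 and 22222 in outer integument (35.5-fold lower, log2 fold -5.15 ± 0.57, adjusted p = 2.8e-06). That fold was 18.5 without hilum array 1 and 68.0 without hilum array 2, and its adjusted p was 0.0545 with the 4 arrays fitted alone. Among the captured compartments IFR1 was highest in outer integument, followed by inner integument at 3980.2 and 1711.

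**Figure D2:**
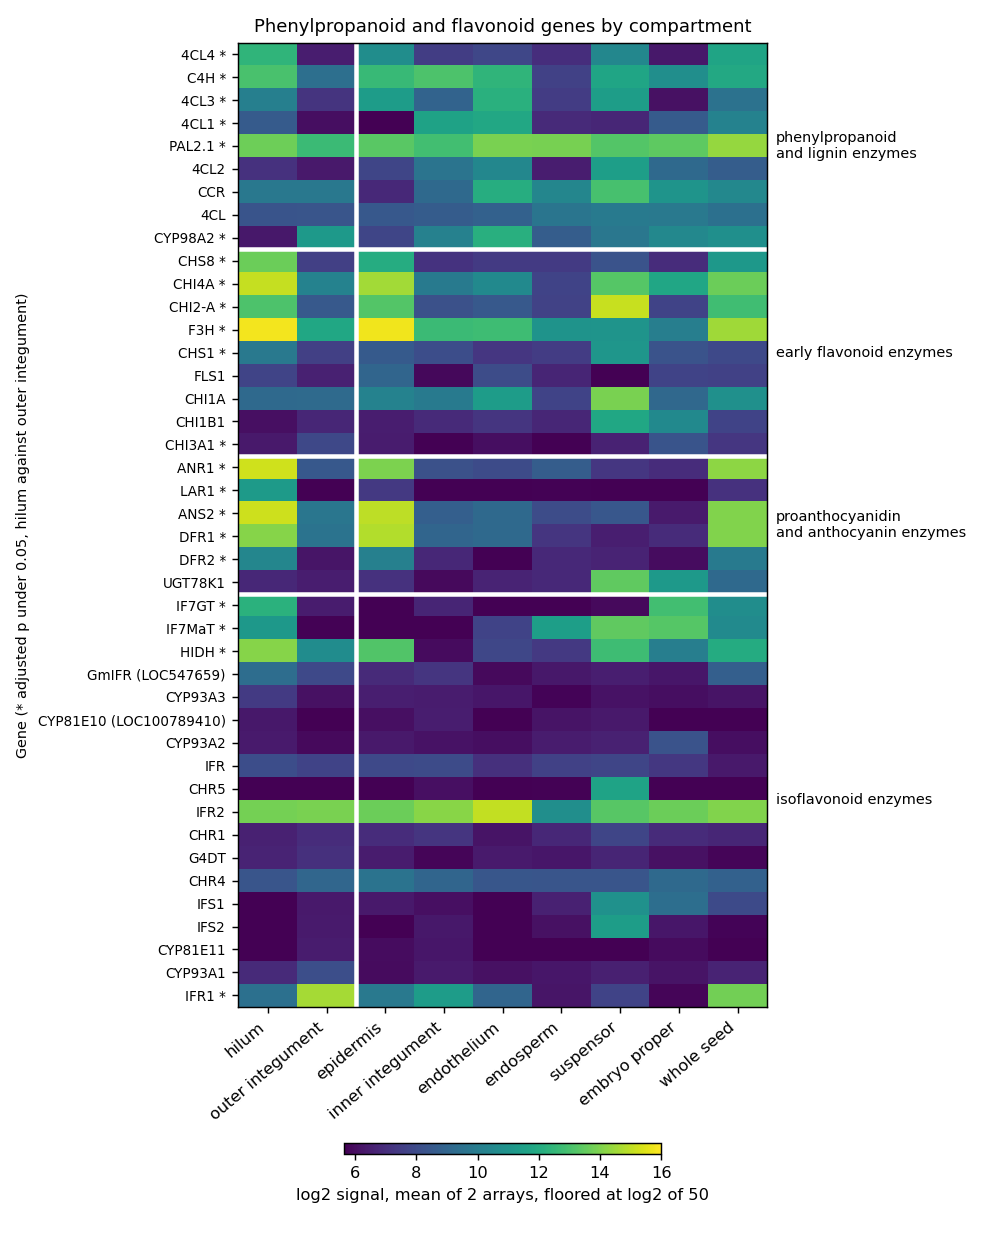
Log2 signal (colour, mean of 2 arrays, floored at log2 of 50) of the genes of 4 lists in hilum, outer integument and the 7 other groups; rows are to be read across, since probe sets differ in response, and an asterisk marks an adjusted p under 0.05 between hilum and outer integument. ANR1, ANS2, DFR1 and F3H were high in hilum, epidermis and whole seed, whereas IF7GT was high in hilum and embryo proper and IFR1 in outer integument and whole seed.

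Transcription factors changed in both directions. Of 59 MYB genes, 10 were higher in hilum and 3 were lower, and 46 did not pass. Over all named genes, 11.7% were higher in hilum and 17.2% were lower. MYB11 had 7249 and 8491.5 in hilum, against 106 and 39.3 in outer integument (108-fold, log2 fold 6.75 ± 0.50, adjusted p = 2.4e-08), while its other probe set was 2.72-fold higher without passing (adjusted p = 0.081). MYB172 had 37512 and 36704 in hilum, against 740.1 and 735.5 in outer integument (50.3-fold, log2 fold 5.65 ± 0.66, adjusted p = 5.3e-06), and MYB73 had 20585 and 27341 in hilum, against 518 and 1533 in outer integument (26.6-fold, log2 fold 4.74 ± 0.50, adjusted p = 1.4e-06). The fold of MYB73 was 15.5 without outer integument array 1 and 45.8 without array 2. In epidermis MYB11 had 3036 and 6239 and MYB172 had 26474 and 32257, while MYB73 had 9593 and 13961 in inner integument. MYB56 followed with 1038 and 787 in hilum, against 40.9 and 84.7 in outer integument (13.9-fold, adjusted p = 2.1e-05). MYB75, the lower MYB gene with the smallest p, had 88.9 and 56.3 in hilum, against 518 and 574 in outer integument (7.71-fold lower, adjusted p = 1.3e-04).

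NMH7 encodes a MADS-box factor whose family member was first described in alfalfa root nodules. It had 12608.5 and 13908 in hilum, against 136.5 and 134 in outer integument (97.9-fold, log2 fold 6.61 ± 0.43, adjusted p = 5.2e-09), and the 2 arrays of each tissue lay close together. No array of another captured compartment exceeded the 143 and 174 of epidermis, while whole seed had 1886 and 1608. Hilum was higher than epidermis (log2 fold 6.39 ± 0.43, adjusted p = 2.3e-08). A pair of further probe sets of NMH7 were also higher in hilum at low signal, with folds of 3.92 and at least 3.39. Of the 6 other MADS-box factors, 0 were higher in hilum and 1 lower, against 11.7% and 17.2% over all named genes. The lower gene, SOYAP1, had 2191 and 2887 in hilum, against 4842 and 5534 in outer integument (2.06-fold, adjusted p = 0.0049). Its fold was 1.79 without hilum array 1, and it did not pass with the 4 arrays fitted alone (adjusted p = 0.084). Another SOYAP1 probe set was lower without passing (log2 fold -1.32, adjusted p = 0.13).

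WRKY factors, a family known for stress responses, had 9 of 45 tested genes higher in hilum and 1 lower. The shares over all named genes were 11.7% higher and 17.2% lower. WRKY29 had 2040.5 and 1747 in hilum, against 90.2 and 99.4 in outer integument (19.9-fold, log2 fold 4.32 ± 0.42, adjusted p = 5.4e-07), and epidermis had 1926 and 2330.4. WRKY11 had 1146 and 1360.1 in hilum, against 157 and 113 in outer integument (9.38-fold, adjusted p = 6.8e-07), and WRKY54 had 444 and 367 in hilum, against 25.3 and 12.4 in outer integument (at least 8.07-fold, adjusted p = 1.7e-05). WRKY22 was the lower gene, with 4736 and 5113 in hilum, against 31554 and 24442 in outer integument (5.64-fold, log2 fold -2.50 ± 0.19, adjusted p = 3.1e-08). Of its 4 other probe sets, 1 was also lower past the threshold, 2 were lower without passing and 1 had a log2 fold of 0.18 (adjusted p = 0.91). With the 4 arrays fitted alone, 4 WRKY genes passed.

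The heat shock factor gene HSF-01 had 39892 and 42990.3 in hilum, against 2309 and 1356.5 in outer integument (23.4-fold, log2 fold 4.55 ± 0.35, adjusted p = 3.7e-08), and epidermis had 35323 and 55923. It was 1 of 2 genes that rose among 19 heat shock proteins and factors, of which 4 fell. Among the falling ones BIP4, an endoplasmic reticulum chaperone, had 6247 and 5604 in hilum, against 19025.5 and 27474 in outer integument (3.86-fold, adjusted p = 3.4e-06). NAC factors divided, with 4 higher and 5 lower of 18. NAC14 had 2693 and 2136 in hilum, against 169 and 204 in outer integument (12.9-fold higher, adjusted p = 7.1e-06) and NAC34 had 158 and 85.5 in hilum, against 1589 and 1724 in outer integument (14.2-fold lower, adjusted p = 3.9e-05). Without hilum array 1, 5 NAC genes passed. Of 58 bZIP factors, 3 were higher and 9 lower. The shares over all named genes were 11.7% higher and 17.2% lower, and the heat shock counts lay near them. BZIP126 had 2316 and 2354 in hilum, against 19161 and 17589 in outer integument (7.86-fold lower, adjusted p = 1.6e-06).

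Small gibberellin-responsive peptides of the GASA family moved in both directions too. In the list of gibberellin genes, 6 of 21 were higher in hilum and 3 were lower, against 11.7% and 17.2% over all named genes. Every one of the 6 was a GASA gene. GASA6 had 40364 and 37763 in hilum, against 1165 and 882 in outer integument (38.5-fold, log2 fold 5.27 ± 0.40, adjusted p = 3.0e-08). GASA14 had 21554 and 23871 in hilum, against 2411 and 2126 in outer integument (log2 fold 3.32 ± 0.28, adjusted p = 1.0e-07). Another GASA14 probe set was 15.9-fold higher (adjusted p = 3.2e-05), and one more was 1.35-fold higher with overlapping arrays and did not pass (0.64). GASA9 had 7096 and 7125 in hilum, against 1376 and 1207 in outer integument (5.52-fold, log2 fold 2.46 ± 0.21, adjusted p = 1.5e-07). These genes differed in the rest of the coat: GASA6 was high in epidermis at 34776 and 28415, whereas GASA9 was highest in endothelium at 19773 and 21780.4. GASA33, GASA11 and GASA32 were 8.58-fold, at least 15.9-fold and 9.79-fold higher. Without outer integument array 1 the fold of GASA32 was 16.6, and without array 2 it was 5.78. On the lower side GASA3 had 4527 and 4491 in hilum, against 14534 and 17799.7 in outer integument (3.57-fold, adjusted p = 3.7e-05), and GASA29 was 6.69-fold lower (adjusted p = 8.1e-05). GA2OX6, a gibberellin 2-oxidase that inactivates the hormone, had 7.6 and 106 in hilum, against 548 and 628 in outer integument (8.04-fold lower, adjusted p = 4.7e-05).

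GER2, a germin-like protein, had 5233 and 13165 in hilum, against 62.3 and 37 in outer integument (149-fold, log2 fold 7.22 ± 0.68, adjusted p = 4.1e-07), and the fold was 236 without hilum array 1 and 93.8 without hilum array 2. Both outer integument signals of GER2 were under background, and its other probe set was 1.96-fold higher without passing (adjusted p = 0.21). Endothelium had 12753 and 14393, and epidermis had 24.4 and 194. GAD (glutamate decarboxylase, which makes gamma-aminobutyrate) had 2180.5 and 1364 in hilum, against 26.4 and 5.8 in outer integument (at least 34.5-fold, log2 fold 5.11 ± 0.51, adjusted p = 7.3e-07). Suspensor held more of it, 13321 and 15898. Of 7 genes of defence and stress, GER2 was the 1 that passed.

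Among genes that were lower in hilum were those of saponin synthesis. Soyasaponins are triterpene glycosides of soybean, made by oxidation of beta-amyrin and addition of sugars. Of 7 triterpene and sterol genes, 6 were lower in hilum and 0 were higher, against 17.2% and 11.7% over all named genes. The median log2 fold of these 7 genes was -2.42. SGT2, which adds galactose to the soyasaponin core, had 8.7 and 77.1 in hilum, against 6685 and 5307 in outer integument (95.9-fold, log2 fold -6.58 ± 0.53, adjusted p = 5.2e-08). SGT3, which adds rhamnose after it, had 117 and 300 in hilum, against 9299 and 8710.3 in outer integument (48.0-fold, log2 fold -5.58 ± 0.42, adjusted p = 2.9e-08). The fold of SGT3 was 30 without hilum array 1 and 76.8 without hilum array 2. The cytochrome P450 gene CYP72A67 had 777 and 506 in hilum, against 13496 and 12077 in outer integument (20.4-fold, log2 fold -4.35 ± 0.34, adjusted p = 4.1e-08). In all 3 genes both hilum arrays lay below both outer integument arrays. CYP93E1, which oxidises beta-amyrin, had 266 and 435 in hilum, against 2496 and 1319.6 in outer integument (5.34-fold, adjusted p = 0.014). Its call was lost without hilum array 1 (adjusted p = 0.12) and without outer integument array 1 (0.15). SMT2-2, a sterol methyltransferase, was 2.30-fold lower (adjusted p = 6.0e-04). A second gene that carries the name SGT3 (LOC732565) had 16.6 and 125 in hilum, against 424.5 and 326 in outer integument (4.71-fold, adjusted p = 0.0035) and did not pass without hilum array 1 (fold 2.98, adjusted p = 0.07), while its fold was 7.44 without hilum array 2.

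Embryo proper was the other compartment with high saponin signals. SGT2 had 5261 and 7732, SGT3 had 3932 and 4566 and CYP72A67 had 10193 and 10357 there. Within the seed coat, outer integument was the highest layer for all 3. Epidermis had 986 and 753 of SGT2, inner integument 127 and 302 and endothelium 648 and 242. Against epidermis, hilum was lower in SGT2 (log2 fold -3.79 ± 0.53, adjusted p = 1.0e-04) and SGT3 (log2 fold -3.02 ± 0.42, adjusted p = 1.1e-04), and CYP72A67 did not pass (log2 fold -0.90 ± 0.34, adjusted p = 0.12). The embryo storage genes A1, GY1, GY2 and KTI3 were not above background on both arrays of hilum or of outer integument. KTI-3, outside that set, was higher in outer integument. The part of embryo RNA in these differences was not tested.

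Lipoxygenases and jasmonate enzymes were mostly lower in hilum. Lipoxygenases oxidise polyunsaturated fatty acids, and allene oxide synthase and cyclase carry one product on toward jasmonic acid. Of 15 tested genes, 8 were lower in hilum, 1 was higher and 6 did not pass (median log2 fold -1.09). The shares over all named genes were 17.2% lower and 11.7% higher. LOX1.4 had 653 and 1204 in hilum, against 33218 and 30570.2 in outer integument (36.0-fold, log2 fold -5.17 ± 0.32, adjusted p = 3.4e-09). VLXC had 109.5 and 158 in hilum, against 1753 and 1861 in outer integument (13.7-fold, log2 fold -3.78 ± 0.51, adjusted p = 2.7e-05), and VLXB had 5027 and 4731 in hilum, against 18688 and 22507 in outer integument (4.21-fold, log2 fold -2.07 ± 0.28, adjusted p = 2.7e-05). LOX1.4, VLXC and VLXB were highest in outer integument among the captured compartments. LOX7 had 9189 and 10024 in hilum, against 54423.5 and 57950.4 in outer integument (5.85-fold, adjusted p = 6.3e-04), and its 3 other probe sets gave larger folds, from 9.61 to 49.9. AOC4 (allene oxide cyclase) had 1836 and 1192 in hilum, against 13738 and 14512.5 in outer integument (9.54-fold, log2 fold -3.25 ± 0.30, adjusted p = 3.7e-07). AOC3 was 2.12-fold lower (adjusted p = 0.0021). AOS1 (allene oxide synthase) was 5.88-fold lower (adjusted p = 0.0049), with a call that was lost without outer integument array 1 (adjusted p = 0.083). LOXB1 was 5.03-fold lower (adjusted p = 0.004), and its call was lost without hilum array 1 (0.061) and without outer integument array 2 (0.092). Its fold was 2.98 without outer integument array 2 and 8.50 without array 1. The gene that was higher, LOX3, had 191 and 522 in hilum, against 137 and 10.2 in outer integument (3.82-fold, adjusted p = 0.037) and did not pass without hilum array 2 (fold 2.31, adjusted p = 0.34) or outer integument array 2 (fold 2.31, adjusted p = 0.31). Without array 1 of hilum or of outer integument, its fold was 6.32. LOX9, abundant in both tissues, had 39015.5 and 44657 in hilum, against 96788 and 66892 in outer integument (log2 fold -0.95 ± 0.72, adjusted p = 0.44). Its 4 other probe sets had lower signals in hilum, and 3 of them passed, at 9.35-fold (adjusted p = 0.0010), 5.20-fold (0.0015) and 12.4-fold (3.8e-04). With the 4 arrays fitted alone, 5 genes of the list passed.

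Of 7 genes of starch and sugar metabolism, 4 were lower and 0 higher (median log2 fold -2.23), against 17.2% lower and 11.7% higher over all named genes. GBSSIa (granule-bound starch synthase, which makes amylose) had 719 and 432 in hilum, against 10737 and 11140.4 in outer integument (19.6-fold, log2 fold -4.29 ± 0.26, adjusted p = 2.7e-09). Another, weaker probe set of it fell as well, and one more had a log2 fold of 0.74 (adjusted p = 0.50). The beta-amylase gene BMY1 (LOC547931) had 309 and 688 in hilum, against 5161 and 5876 in outer integument (11.9-fold, log2 fold -3.58 ± 0.46, adjusted p = 1.6e-05). BMY2, another beta-amylase, was 7.24-fold lower (adjusted p = 5.2e-04), although its second probe set had a log2 fold of 0.60 (adjusted p = 0.43). MIPS (inositol phosphate synthase) had 1789 and 824.5 in hilum, against 4665 and 6999 in outer integument (4.71-fold, adjusted p = 6.5e-05). With the 4 arrays fitted alone, 2 of these genes passed. GBSSIa had 16603 and 17841 in suspensor, 15088.5 and 17242 in embryo proper and 468 and 625 in inner integument.

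In the cell wall list, 5 of 13 genes were lower in hilum and 2 were higher, against 17.2% lower and 11.7% higher over all named genes (median log2 fold -1.46). SBPRP, a proline-rich protein gene, had 481.5 and 604 in hilum, against 38634 and 36131 in outer integument (69.3-fold, log2 fold -6.11 ± 0.45, adjusted p = 2.4e-08). XTH1 (xyloglucan endotransglucosylase/hydrolase, which cuts and rejoins wall polymers) had 3353 and 4098 in hilum, against 55338.5 and 38966 in outer integument (12.5-fold, log2 fold -3.65 ± 0.29, adjusted p = 5.6e-08). EXP2, an expansin (a protein that loosens walls), had 1443 and 2107.5 in hilum, against 11949.9 and 12189 in outer integument (6.92-fold, log2 fold -2.79 ± 0.29, adjusted p = 1.3e-06). PRP3, a proline-rich wall protein, had 1584.5 and 3395.5 in hilum, against 27486 and 14393 in outer integument (8.57-fold, log2 fold -3.10 ± 0.37, adjusted p = 5.7e-06). Outer integument was the highest captured compartment for SBPRP and XTH1, and EXP2 had 14226 and 17608 in endosperm. The BURP-domain gene SCB1, known from the soybean seed coat, had 4315 and 16016 in hilum, against 140588 and 90784 in outer integument (13.6-fold, adjusted p = 0.014). The hilum arrays disagreed on it: the fold was 7.05 without hilum array 1 (adjusted p = 0.17) and 26.2 without hilum array 2, and without outer integument array 1 the adjusted p was 0.11. PRP1 moved the other way, with 20659 and 24534 in hilum, against 1423 and 1792 in outer integument (14.1-fold higher, log2 fold 3.82 ± 0.76, adjusted p = 0.0013), and epidermis had 19305 and 36934. PRP2, the other higher gene, had 416 and 252 in hilum, against 177.5 and 35.5 in outer integument (3.44-fold, adjusted p = 0.026). It lost its call without hilum array 1 (adjusted p = 0.18) and without outer integument array 2 (fold 1.83, adjusted p = 0.33), and its fold was 6.48 without outer integument array 1.

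**Figure D3:**
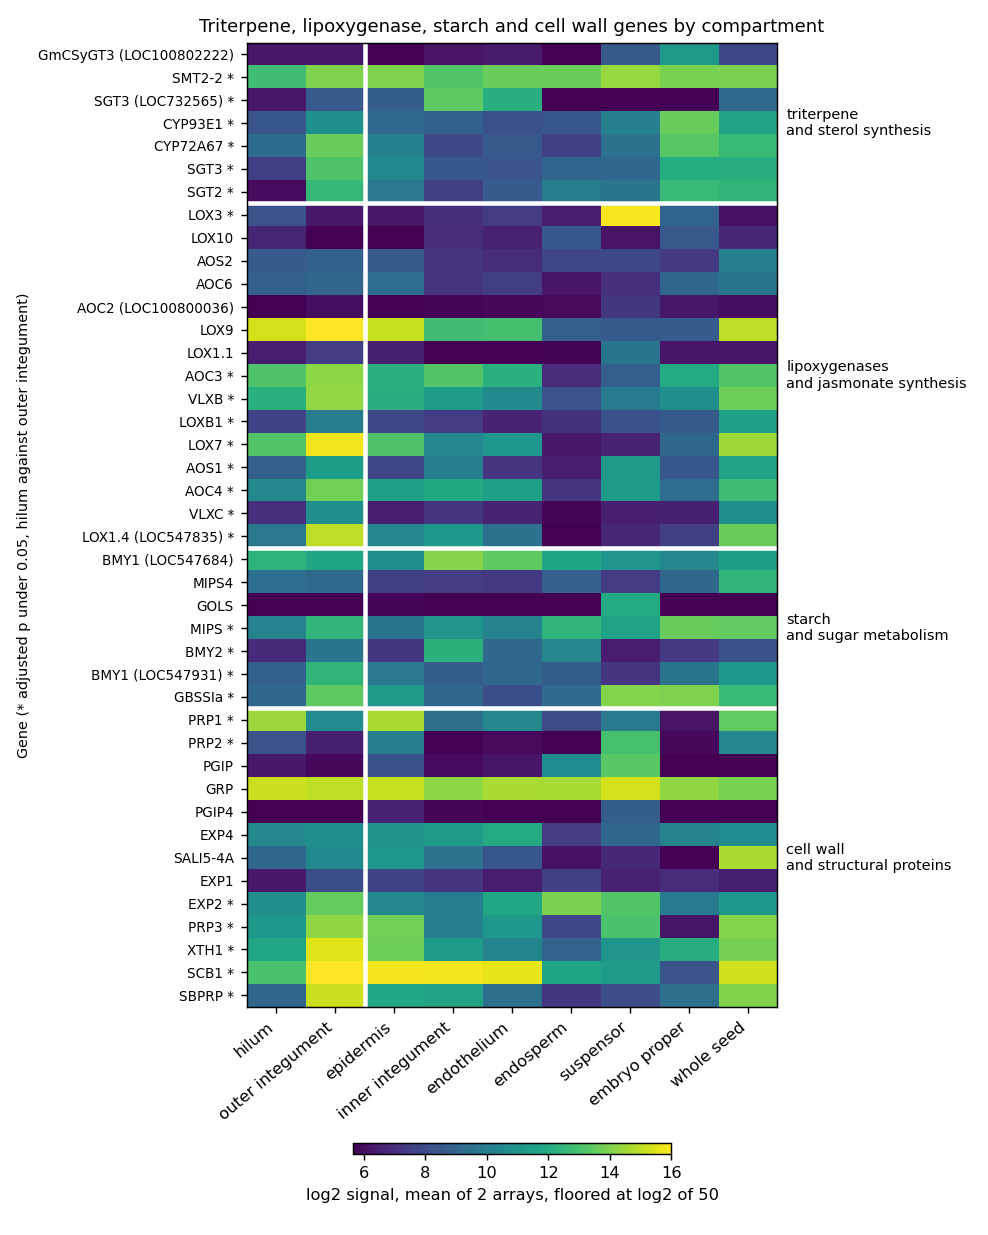
Log2 signal (colour, mean of 2 arrays, floored at log2 of 50) of the genes of the triterpene, lipoxygenase, starch and cell wall lists in hilum, outer integument and the 7 other groups; rows are to be read across, and an asterisk marks an adjusted p under 0.05 between hilum and outer integument. SGT2, CYP72A67 and GBSSIa were high in outer integument and embryo proper, and LOX1.4 and SBPRP in outer integument and whole seed.

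Transport genes with large falls were few. SWEET24, a member of the family of sugar efflux transporters, had 3106 and 2115 in hilum, against 79061 and 57743 in outer integument (26.4-fold, log2 fold -4.72 ± 0.43, adjusted p = 2.6e-07) and was the 1 of 13 genes of sugar transport and invertase that passed. Inner integument held a high level too, 33153 and 46099, and so did endothelium, 27459 and 12532, whereas epidermis had 1185 and 1499.7 (log2 fold 0.94 ± 0.43, adjusted p = 0.22, hilum over epidermis). N-26 encodes nodulin-26, a channel of the aquaporin family, and had 230 and 317 in hilum, against 10077 and 10272 in outer integument (37.7-fold, log2 fold -5.24 ± 0.60, adjusted p = 4.0e-06). Among 23 aquaporins 3 were higher in hilum and 5 were lower, near the 11.7% higher and 17.2% lower over all named genes. PIP2-9 had 3078 and 2288.5 in hilum, against 15874 and 16287 in outer integument (6.06-fold lower, log2 fold -2.60 ± 0.25, adjusted p = 5.4e-07), while PIP1-1 had 4154 and 3628 in hilum, against 796 and 374 in outer integument (7.12-fold higher, log2 fold 2.83 ± 0.39, adjusted p = 3.5e-05). PIP2-1 had 14043 and 13464 in hilum, against 42916 and 38182 in outer integument (2.94-fold lower, adjusted p = 3.0e-04), but another probe set assigned to it was higher in hilum (log2 fold 4.03, adjusted p = 1.1e-07), so its direction depends on the probe set.

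Of 7 sieve element genes, 3 were lower in hilum and 0 higher, against 17.2% and 11.7% over all named genes. With the 4 arrays fitted alone only SEOE passed. SEOE was 3.10-fold lower in hilum, and its other probe set did not pass (log2 fold -0.66, adjusted p = 0.38). The fold of SEO-F3 was 11.2 without hilum array 1 and 3.60 without hilum array 2. SEOA had 249 and 218 in hilum, against 1232 and 858.5 in outer integument (4.42-fold, adjusted p = 0.0062), and the call was lost without outer integument array 1 (adjusted p = 0.064). The vascular genes SUT1, SEOA and SEOC summed to 644 and 670.5 in hilum and 1422 and 1132 in outer integument, the highest of the captured compartments. SEOA made up most of the outer integument sum, whereas SUT1 was 1.85-fold higher in hilum without passing. Of these 3 genes, 2 were above background on both hilum arrays and 1 on both outer integument arrays. The part of these vascular genes in the other differences was not tested.

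In nitrogen metabolism, 3 of 24 genes were higher in hilum and 6 were lower, against 11.7% higher and 17.2% lower over all named genes. GDH1 (glutamate dehydrogenase) had 122 and 159.7 in hilum, against 4877 and 3567 in outer integument (29.9-fold lower, log2 fold -4.90 ± 0.33, adjusted p = 7.0e-09), and inner integument had 5237.5 and 5433. A glutamine synthetase gene (GS, LOC548082) had 35451 and 41701 in hilum, against 11163 and 13405.5 in outer integument (3.14-fold higher, log2 fold 1.65 ± 0.22, adjusted p = 1.8e-05), and 2 of its 3 other probe sets were also higher, 1 of them past the threshold, while 1 had a log2 fold of -0.86 (adjusted p = 0.23). The other glutamine synthetase gene of that name (LOC547953) had 3274 and 3127 in hilum, against 734 and 599 in outer integument (4.83-fold higher, adjusted p = 1.3e-04). NRT1-3, of a nitrate transporter family, had 13906 and 10397 in hilum, against 43997 and 34671 in outer integument (3.25-fold lower, adjusted p = 2.6e-05).

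The named gene with the largest fall was SC-03, with 377 and 397 in hilum, against 47824 and 39389 in outer integument (112-fold, log2 fold -6.81 ± 0.23, adjusted p = 2.9e-12). It was higher still in suspensor, at 115576 and 75243, and in embryo proper, at 52481 and 58959, while epidermis had 10322 and 9563. SC-04 had 29.3 and 107 in hilum, against 4269 and 6529.5 in outer integument (72.3-fold, log2 fold -6.18 ± 0.57, adjusted p = 3.0e-07) and was likewise highest in suspensor, 75485 and 55226. The suspensor genes PM9, PM25, PM32 and MP2 given above summed to 369 and 259.8 in outer integument. Of these 4 genes, 1 was above background on both outer integument arrays and 0 on both hilum arrays. Their part in the falls of SC-03 and SC-04 was not tested. PSK3 encodes the precursor of phytosulfokine, a small sulfated peptide that signals between cells. It had 457 and 466 in hilum, against 52279 and 37752 in outer integument (96.3-fold, log2 fold -6.59 ± 0.29, adjusted p = 5.9e-11), and was at 25533 and 22903 in inner integument, 22064.5 and 22174.5 in endothelium and 8246 and 14902 in epidermis, so hilum had the lowest signal of the 5 seed coat tissues (log2 fold -4.59 ± 0.29, adjusted p = 1.3e-08, hilum over epidermis). SSTP-1 had 503.5 and 759 in hilum, against 45280.3 and 16898.5 in outer integument (44.8-fold, log2 fold -5.48 ± 0.94, adjusted p = 3.4e-04), and the fold was 27.3 without outer integument array 1 and 73.3 without array 2. DRR1 had 56.6 and 91.3 in hilum, against 2537 and 2867 in outer integument (37.5-fold, log2 fold -5.23 ± 0.49, adjusted p = 3.6e-07). PDH had 7.2 and 7.2 in hilum, against 2018 and 1518 in outer integument, so its fold is at least 35.0-fold (log2 fold -5.13 ± 0.41, adjusted p = 5.8e-08), and it was under the floor in no other compartment.

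Over all 38 lists, the share of genes that passed varied. The count of each list is to be read beside the 11.7% higher and 17.2% lower over all named genes. The plot of log2 folds by list shows the proanthocyanidin, early flavonoid and phenylpropanoid lists at the top by median and the triterpene, starch, cell wall and lipoxygenase lists at the bottom. Most other lists had medians near 0. Among glutathione S-transferases (34 tested) 6 were higher and 5 lower, but 5 passed in all without hilum array 1 and likewise without outer integument array 1. GSTU51 had 488 and 295 in hilum, against 4261 and 2753 in outer integument (9.03-fold lower, adjusted p = 8.3e-06). Of 8 auxin genes 2 were higher, and AUX28 had 512 and 314 in hilum, against 17.2 and 36.9 in outer integument (at least 8.02-fold, adjusted p = 3.3e-05). CKX3, a cytokinin oxidase that degrades the hormone, had 3935 and 4152 in hilum, against 22285 and 24503 in outer integument (5.78-fold lower, log2 fold -2.53 ± 0.41, adjusted p = 1.8e-04). Of 15 storage protein, lectin and inhibitor genes KTI-3 alone passed, with 617 and 454 in hilum, against 3842.5 and 4484 in outer integument (7.84-fold lower, adjusted p = 0.0013). SACPD-C, a plastid acyl desaturase, had 78.2 and 60.6 in hilum, against 651 and 760.2 in outer integument (10.2-fold lower, adjusted p = 4.2e-04). Of 11 tubulin, actin and other reference genes, TUBB2 was 2.01-fold higher and TUBB3 1.65-fold lower, and the other 9 did not pass. The call of TUBB3 was lost without hilum array 2 (adjusted p = 0.15) and without outer integument array 1 (0.072) or array 2 (0.079).

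**Figure D4:**
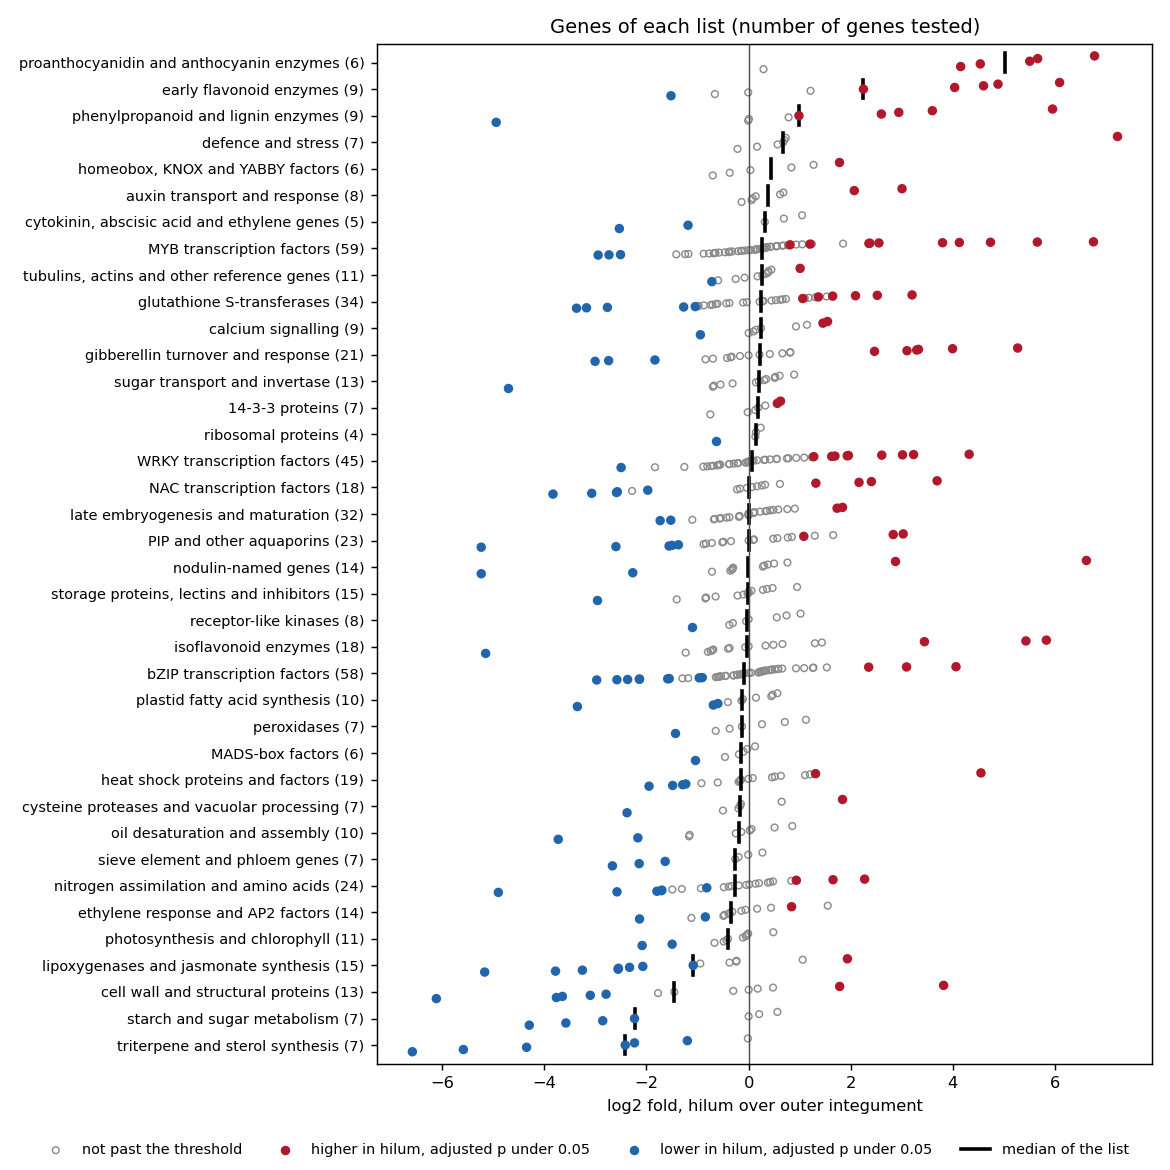
Log2 fold of hilum over outer integument for each tested gene of the 38 lists, 1 point a gene, with lists ordered by their median (black bar) and the number of genes tested in brackets. Filled points passed an adjusted p of 0.05 and open points did not; 5 of 6 proanthocyanidin and anthocyanin genes lie above 4, and 6 of 7 triterpene and sterol genes lie below -1.

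Several probe sets with no gene symbol beyond an identifier moved further than any named gene. The unnamed probe set with the largest rise had 17256 and 15918 in hilum, against 63.6 and 45.9 in outer integument (294-fold, log2 fold 8.20 ± 0.52, adjusted p = 4.2e-09). The next had 18711 and 20078 in hilum, against 109 and 47.8 in outer integument (263-fold), and the one after it had 23441 and 22668 in hilum, against 229 and 30.2 in outer integument (216-fold). The last of these was 461-fold without outer integument array 1 and 101-fold without array 2. Lower in hilum were LOC547658, with 21.2 and 32.1 in hilum, against 24189.7 and 25168 in outer integument (at least 493-fold, log2 fold -8.95 ± 0.55, adjusted p = 2.7e-09), and an unnamed probe set, with 23.4 and 28.2 in hilum, against 22991 and 17666 in outer integument (at least 403-fold). LOC547877 had 36.7 and 319 in hilum, against 62275 and 51806 in outer integument, a 449.9-fold difference that was 178 without hilum array 1 and 1136 without hilum array 2.

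By correlation, hilum lay nearer to epidermis than to outer integument. The Pearson correlation of group means across probe sets was 0.916 between hilum and epidermis and 0.866 between hilum and outer integument. Between hilum and epidermis 2655 probe sets passed (8.31%), against 5333 between hilum and outer integument (16.7%). Hilum against endothelium gave 6582 (20.6%) and hilum against inner integument 8677 (27.1%). Between outer integument and epidermis 4488 passed (14%). These comparisons share arrays, and the difference between their counts was not tested. Named genes fell into 2 descriptive patterns: ANS2, DFR1, F3H, CHI4A, MYB172, GASA6, PRP1 and HSF-01 had high epidermis signals, whereas LAR1, NMH7, IF7GT, IF7MaT, GAD and GER2 were low in both epidermis and outer integument. Both sets were named after the values were seen. CHI4A had 22136 and 26867 in epidermis (log2 fold 0.53 ± 0.32, adjusted p = 0.39, hilum over epidermis). MYB172 did not pass either (log2 fold 0.34 ± 0.66, adjusted p = 0.85). In the second set, hilum over epidermis gave log2 folds of 6.60 ± 0.45 for IF7GT, 5.51 ± 0.47 for IF7MaT, 4.82 ± 0.51 for GAD and 6.40 ± 0.68 for GER2, each past the threshold.

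Several probe sets carry a suffix that marks possible binding of more than 1 transcript. Their values may include other transcripts of the same gene or, for some suffixes, other members of a family. This holds at least for GER2, NMH7, MYB172, IF7MaT, CHI4A, F3H, C4H, CHS1, CHI3A1, PAL2.1, GASA14, GASA33, PRP1, PRP2, PRP3, PSK3, SGT2, SMT2-2, LOX1.4, LOX3, LOX7, LOX9, LOXB1, IFS1, IFS2, MIPS, NAC14, KTI-3, GF14A, SCAM-3, GSTF5, SUT1, PM3, RPS6, OAS-TL4 and the gene LOC732565. Where more than 4 genes of a list are given, those beyond the 4 with the smallest p were chosen after their values were seen, unless they are among the 30 plotted by array. With the 4 arrays fitted alone, 29 of the 30 genes with the largest changes passed. These genes were chosen on the same arrays for large folds, a passing test and no overlap, so that outcome was largely fixed in advance. Of all 187 genes and probe sets followed that passed, 95 lost the call in that fit. Leaving out 1 array moved the fold of 7 of the 30 genes by over 1.5 times.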

How the data were processed

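RNA of 9 seed compartments, 2 arrays each, was hybridised to the Affymetrix Soybean Genome Array. Per the submitters' processing notes the authors used GCOS 1.3; further settings are not given in the sources used here. The deposited values are linear probe set intensities, 1 per array, and their trimmed mean (2% cut at each end) is 500 on every array as computed here. No detection calls were used here. The number of arrays limits the precision.

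Of 61170 probe sets, 37593 are for soybean. Of these, 8677 had 1 gene symbol in the platform annotation, 370 had several and 28546 were not listed there; 8652 were found in the RefSeq gene table by gene ID. Signals were floored at 50 and converted to log2. A probe set was tested if it reached 100 on at least 2 of the 18 arrays (31961 probe sets). limma 3.58.1 in R 4.3.3 fitted all 9 groups (lmFit, then eBayes with a trend), so that 14 other arrays contributed to the variance, and tested hilum minus outer integument. P-values were adjusted by the Benjamini-Hochberg method over all tested probe sets, at a threshold of 0.05. Where a gene had several probe sets, the one of highest mean log2 signal stood for it. "At least" marks folds in which every array of the lower tissue lay under the floor.

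The genes named were the 15 with the largest rises and the 15 with the largest falls that passed, did not overlap and were above background on both arrays of the higher tissue, the 3 probe sets with the largest changes each way, and up to 4 genes of smallest p in each of 38 lists. The members and the lists were chosen with earlier results of these data known. Background is the 95th percentile of 23394 probe sets for other organisms on the same array. In 3 simulated runs with the same groups and spread, both tissues were set equal except for a small set of changed probe sets. The fit recovered 9.45% of probe sets changed 2-fold, 54.2% of those changed 4-fold and 72.2% of those changed 8-fold. It made 6.33 false calls a run on average. Far more probe sets passed in the real comparison, so these recoveries do not carry over to it directly. Other floors, filters, scalings, groups in the fit and probe sets, a replicate block and the removal of each array were tried as alternatives.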

Additional observations from a re-analysis of the deposited data

How the results depend on the processing

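The count of 5333 probe sets depended most on which arrays set the variance. With the 4 arrays fitted alone, 1700 probe sets passed, 836 higher in hilum and 864 lower; this fit has fewer arrays to estimate the spread. Leaving out 1 array at a time gave totals from 3778 to 4333, with 1958 to 2265 higher in hilum and 1820 to 2068 lower. Under the other floors, filters and scalings and the fits to fewer groups, the totals stayed within 1.5 times of 5333. Replicate numbers do not pair the arrays (the correlation of deviations of same-numbered arrays was -0.037 between hilum and outer integument, and from -0.07 to 0.08 over all 36 pairs of groups), and a fit with the replicate number as a block gave 5267 calls, 2706 higher and 2561 lower. Of 187 genes and probe sets followed that passed, 123 passed without each array in turn and 95 lost the call with the 4 arrays alone, among them 4CL1, 4CL3, PRP3, PIP1-1, NRT1-3, MIPS, BMY2, GA2OX6, GASA32 and AOC3. With the 4 arrays alone the lists held 4 early flavonoid, 7 MYB, 5 bZIP, 3 NAC, 5 aquaporin, 4 cell wall, 3 nitrogen, 3 glutathione S-transferase and 1 sieve element call, and 5 of 5 proanthocyanidin and anthocyanin calls. Another probe set of the same gene gave the same call, or no call as before, in 84 cases and missed the threshold in the same direction in 60. Among those 60 were GER2 (log2 fold 0.97, adjusted p = 0.21), MYB11 (1.45, 0.081), PDH (-0.78 and -0.69, 0.34 and 0.38), IF7MaT (1.66 and 0.16, 0.10 and 0.94) and NAC14 (0.73 and 0.72, 0.37 and 0.62). So were HSF-01 (1.41, 0.11), GA2OX6 (-0.83, 0.47), IFR1 (-0.97 and -0.62, 0.22 and 0.43) and CYP98A2 (-0.37 and -0.94, 0.68 and 0.29). Further probe sets of IFR1 (-2.61) and CYP98A2 (-2.62 and -5.19) passed in the same direction. In 25 further cases, in which at least 1 of the 2 probe sets compared passed, the other probe set had the opposite sign or, once for GF14A, a log2 fold of 0; the cause was not tested. The log2 folds of these other probe sets were 0.12 and 0.11 for AOS1, -0.73 for APX1, 0.60 for BMY2, 0.69 for BZIP55, -0.62 for CHS1, -1.44 for CHS8, 0.14 for CYP98A2, 0.89 for FAT1, 0.74 for GBSSIa, 0 and -0.015 for GF14A, -0.86 for GS (LOC548082), 1.87 for GSTF5, -0.85 for HSF-33, -0.20 for LOX3, 0.85 for NAC12, 0.35 for OAS-TL4, 4.03 for PIP2-1, -0.51 for PM3, -0.34 for PRP2, 0.20 for RPS6, 2.47 and 2.39 for SCAM-3 and 0.18 for WRKY22. Of these, PIP2-1 (adjusted p = 1.1e-07), CHS8 (0.0054), APX1 (0.012) and both of SCAM-3 (2.8e-07 and 1.5e-07) passed in the opposite direction. Folds with a signal under 50 depend on the floor, and signals between 50 and the background percentile of 152.5 to 216 are not distinct from background.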
